A study of Mus musculus with 8 samples.

Results

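Kidney mRNA levels of 8 genes of the mitogen-activated protein (MAP) kinase cascades were compared between rFGF4-treated and vehicle-treated diabetic mice. The genes were taken by symbol from the deposited gene table and were found once each among its 55401 rows. They encode the small GTPase HRAS (*Hras*), the RAF kinase BRAF (*Braf*), the kinases MEK1 and MEK2 (*Map2k1*, *Map2k2*), ERK1 (*Mapk3*), p38 alpha (*Mapk14*) and the JNK kinases JNK1 and JNK2 (*Mapk8*, *Mapk9*). All 8 passed the filter on low values. The study sequenced poly(A) RNA of whole kidney from 8 mice, 1 library per mouse, to look for signals downstream of the FGF4 receptor FGFR1. The rFGF4 group held mice 1, 2, 3 and 5, which the labels give only the treatment "rFGF4 treatment". The other group held mice 2, 3, 4 and 5, labelled "db/db model", which the study describes as given PBS vehicle. The rFGF4 is a modified, non-mitogenic form of human FGF4 that was injected intraperitoneally. The labels and design text name db/db mice, which lack a working leptin receptor, whereas the study's text describes the sequenced animals as made diabetic with streptozotocin, and the deposited values do not settle which they were. No non-diabetic mice were among the libraries. The study describes male mice and the same regimen for both models, an injection of rFGF4 or PBS every other day, and it does not give age or regimen separately for the sequenced animals.

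A growth factor receptor such as FGFR1 passes its signal through adaptor proteins to RAS GTPases, which switch on the RAF kinases. RAF phosphorylates MEK, MEK phosphorylates ERK, and ERK phosphorylates nuclear and cytoplasmic targets. The p38 and JNK kinases stand at the end of parallel cascades that respond to stress and cytokines, and p38 and JNK signaling have been studied for years in diabetic and inflammatory kidney injury. All of these proteins are switched by phosphorylation or, for RAS, by GTP binding. The values here are mRNA levels, so they say how much template for each kinase was present and nothing of its activity.

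MAP kinases are switched on when MEK-type kinases phosphorylate a threonine and a tyrosine in the activation loop, and MEK itself when RAF phosphorylates a pair of serines there. The codons of these sites are shown because the residue between threonine and tyrosine is what tells ERK, p38 and JNK apart. They were read from the longest coding transcript of GENCODE M21 (GRCm38) that the deposited table lists for each gene. The capitals mark the codons of the threonine, the residue between and the tyrosine in MAP kinases, and the codons from the first to the second serine in MEK. Each stretch lies in 1 coding exon and is given 5′ to 3′ on the strand of the gene.
Mapk3 (ERK1, chr7:126763446-126763478, plus strand, exon 4): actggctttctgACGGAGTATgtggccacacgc
Mapk14 (p38 alpha, chr17:28728387-28728419, plus strand, exon 7): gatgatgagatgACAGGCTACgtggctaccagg
Mapk8 (JNK1, chr14:33392991-33393023, minus strand, exon 6): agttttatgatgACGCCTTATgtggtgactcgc
Mapk9 (JNK2, chr11:49872818-49872850, plus strand, exon 6): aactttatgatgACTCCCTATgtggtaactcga
Map2k1 (MEK1, chr9:64193717-64193755, minus strand, exon 6): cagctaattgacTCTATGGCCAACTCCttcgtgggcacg
Map2k2 (MEK2, chr10:81119328-81119366, plus strand, exon 6): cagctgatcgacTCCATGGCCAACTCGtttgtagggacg
The middle codon is GAG (glutamate) in *Mapk3*, GGC (glycine) in *Mapk14* and CCT or CCC (proline) in *Mapk8* and *Mapk9*. The coding sequences of *Map2k1* and *Map2k2* were identical at 78.4% of aligned bases, with a longest shared run of 56 bases. Those of *Mapk8* and *Mapk9* were identical at 75.1%, with a longest shared run of 23 bases. A read lying wholly within such a run could come from either gene, and how the authors assigned such reads is not given in the sources used here.

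Levels are given as FPKM (fragments per kilobase of exon, relative to all mapped reads of the library), and how many fragments stand behind each is unknown. Library sums of FPKM ran from 389407 to 552604, and relative depth, estimated from the most frequent FPKM ratio among genes of low level, lay between 0.905 and 1.12 of vehicle mouse 2. Markers of kidney tissue were present in every library, with proximal tubule markers summing to between 243 and 1214 FPKM over 5 genes. Fewer cells of a type and less RNA per cell cannot be told apart in whole tissue. The lowest proximal tubule sum was in rFGF4 mouse 1. The 4 macrophage markers summed to 246 FPKM in rFGF4 mouse 1 and 277 in vehicle mouse 5, against 16.3 to 105 in the other 6 libraries. The 4 B and plasma cell markers reached 22887 FPKM in vehicle mouse 5, against at most 2713 elsewhere. Across 15150 tested genes the median log2 fold change was 0.086, and 67.1% were higher in rFGF4-treated mice by any amount. The study's threshold asks for an unadjusted p under 0.05 and a fold of 1.5 or more, or 0.67 or less. It was passed by 165 genes that were higher and 67 that were lower, and by 93 and 86 after each library was divided by its median ratio to the geometric mean of all libraries, called the common median ratio here.

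None of the 8 genes passed the study's threshold, which 1.53% of all tested genes passed, and none passed an unadjusted p of 0.05 alone, against 4.62% of all tested genes (limma's moderated test on log2(FPKM + 1)). No gene of the 8 had groups that did not overlap, against 3.33% of all tested genes in either direction and 2.66% with the rFGF4 group higher. An adjusted p under 0.05 was found for 0 of the 15150 tested genes (limma, Benjamini-Hochberg), beside 700 at an unadjusted p under 0.05. The median log2 fold change of the 8 genes was 0.096, beside 0.086 for all tested genes. Both moved with the scaling and with single mice: they were -0.021 and -0.011 with the common median ratio, 0.064 and 0.010 without rFGF4 mouse 1, 0.052 and 0.083 without rFGF4 mouse 2, and 0.056 and 0.056 without vehicle mouse 4. *Mapk14* had the largest difference, 18.1 FPKM in rFGF4-treated against 10.7 in vehicle-treated mice, and the other 7 genes had log2 fold changes between -0.0058 and 0.16. Nothing in the labels says how the mice were housed or processed, so the p-values measure the spread between these mice only.

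**Figure D1:**
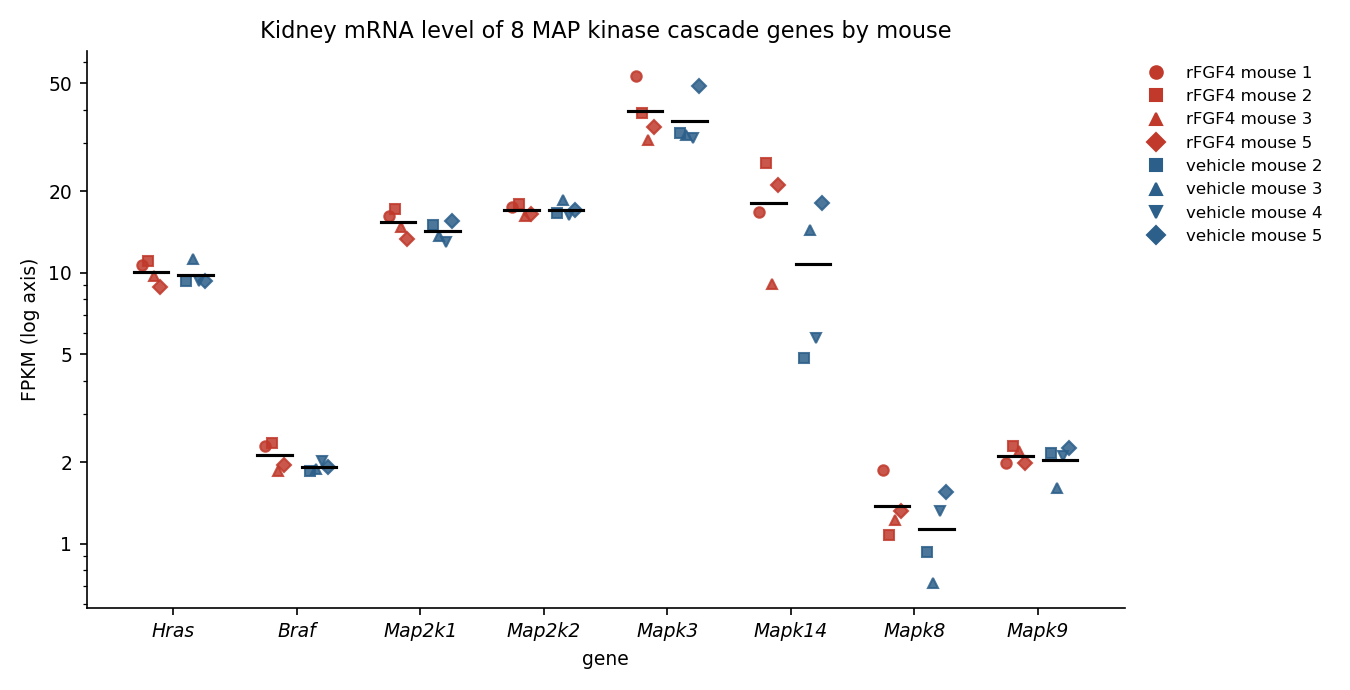
FPKM of the 8 genes in each mouse on a log axis, rFGF4-treated mice in red and vehicle-treated mice in blue, with one symbol per mouse number and black bars for the group means. The groups overlap for all 8 genes, and *Mapk14* spans the widest range, from 4.83 to 25.3 FPKM.

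*Hras* encodes one of the 3 classical RAS proteins, which carry the signal from receptor to RAF. On GRCm38 the gene occupies chromosome 7 between 141189105 and 141194005. Its level was 10.7, 11.05, 9.71 and 8.84 FPKM in rFGF4 mice 1, 2, 3 and 5, and 9.33, 11.3, 9.29 and 9.30 FPKM in vehicle mice 2, 3, 4 and 5. Both groups covered nearly the same range, and the highest value was in vehicle mouse 3. The log2 fold change was 0.035 (standard error 0.12), and its 95% interval ran from -0.23 to 0.30, a fold change of 0.850 to 1.23. The direction turned to -0.083 with a common median ratio and to -0.080 with quantile normalization.

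*Braf* encodes a RAF kinase that phosphorylates MEK. It lies on chromosome 6 from 39603237 to 39725463, and 146 of its exonic bases are shared with *Ndufb2* on the opposite strand. Whether the libraries kept strand is not given, so reads of the shared part cannot be assigned to either gene. Its level was 2.30, 2.36, 1.86 and 1.95 FPKM in rFGF4 mice 1, 2, 3 and 5, and 1.85, 1.88, 2.02 and 1.91 FPKM in vehicle mice 2, 3, 4 and 5. rFGF4 mice 1 and 2 lay above all vehicle-treated mice and rFGF4 mice 3 and 5 lay within their range. The log2 fold change was 0.094 (standard error 0.11; 95% interval -0.16 to 0.34), which was 0.0053 with a common median ratio.

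*Map2k1* and *Map2k2* encode MEK1 and MEK2, the kinases that phosphorylate and activate ERK. *Map2k1* lies on chromosome 9 from 64185770 to 64253631. Its level was 16.2, 17.2, 14.7 and 13.4 FPKM in rFGF4 mice 1, 2, 3 and 5, and 14.9, 13.7, 12.9 and 15.6 FPKM in vehicle mice 2, 3, 4 and 5. The rFGF4 group held the highest values, in mice 1 and 2, and its lowest value was below that of 3 vehicle-treated mice. The log2 fold change was 0.098 (standard error 0.12; 95% interval -0.17 to 0.37), which turned to -0.023 with a common median ratio and to -0.0078 with quantile normalization.

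*Map2k2* lies on chromosome 10 from 81105915 to 81133975. On the deposited scale it was the steadiest of the 8 genes, at 17.5, 17.9, 16.2 and 16.5 FPKM in rFGF4 mice 1, 2, 3 and 5, and 16.6, 18.6, 16.3 and 17.0 FPKM in vehicle mice 2, 3, 4 and 5. Its pooled SD within groups was 0.072 on the log2(FPKM + 1) scale, and 1.06% of tested genes had a smaller one. The log2 fold change was -0.0058 (standard error 0.096), and the 95% interval, -0.23 to 0.22, corresponds to a fold change of 0.854 to 1.16. The common median ratio moved it to -0.13, and it was above 0 in 4 of 16 alternatives.

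*Mapk3*, which encodes ERK1, was the most abundant of the 8 genes. It lies on chromosome 7 from 126759601 to 126765819. Its level was 53.2, 38.9, 30.9 and 34.6 FPKM in rFGF4 mice 1, 2, 3 and 5, and 32.9, 32.2, 31.5 and 49.0 FPKM in vehicle mice 2, 3, 4 and 5. The 2 highest values of the 8 mice were in rFGF4 mouse 1 and vehicle mouse 5, 1 in each group, and these are the libraries with the most macrophage marker FPKM (246 and 277). They also had the lowest shares of FPKM from mitochondrially encoded genes, 19.0% and 24.4%, against 24.7% to 38.4% in the other libraries. The part of these differences in the *Mapk3* values was not tested. The group means were 39.4 ± 9.76 and 36.4 ± 8.42 FPKM (SD, n = 4 each), with a log2 fold change of 0.11 (standard error 0.21; 95% interval -0.37 to 0.58). It turned to -0.019 with a common median ratio, to -0.043 without rFGF4 mouse 1 and to -0.10 with mouse number as a block.

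The common median ratio lowered the pooled SD of *Mapk3* from 0.31 to 0.17 on the log2 scale, and the highest scaled value was 45.0, in vehicle mouse 5. The scaling divided rFGF4 mouse 1 by 1.27 and vehicle mouse 5 by 1.09, the largest factors of the 8 libraries. For *Map2k2* the SD rose from 0.072 to 0.14, above the scaled 0.087 of *Braf* and 0.12 of *Map2k1*. For *Mapk14* the SD was 0.74 before and 0.69 after scaling.

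*Mapk14*, which encodes p38 alpha, the main p38 kinase of most tissues, varied most. It lies on chromosome 17 from 28691329 to 28748406, and a small annotated gene, *AC170998.1*, lies within it on the same strand without sharing exonic bases. Its level was 16.8, 25.3, 9.10 and 21.2 FPKM in rFGF4 mice 1, 2, 3 and 5, and 4.83, 14.3, 5.74 and 18.1 FPKM in vehicle mice 2, 3, 4 and 5. Within the vehicle group, mice 2 and 4 were low and mice 3 and 5 high. Within the rFGF4 group, mouse 3 was below vehicle mice 3 and 5, and the other 3 mice lay within or above the vehicle range. The group means were 18.1 ± 6.93 and 10.7 ± 6.50 FPKM (SD, n = 4 each), a ratio of 1.68. The log2 fold change of 0.80 (standard error 0.45) had an unadjusted p of 0.114 and an adjusted p of 0.918 in limma, and the two-sided exact permutation test gave p = 0.2. The difference thus did not exceed the spread between mice, while the 95% interval, from -0.24 to 1.83, allows a fold change from 0.848 to 3.56. Of the tested genes, 91.1% had a smaller pooled SD than the 0.74 of *Mapk14*.

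The *Mapk14* difference was above 0 in 16 of 16 alternatives, between 0.52 and 1.19. It passed the study's threshold in 3 of them. Without rFGF4 mouse 3 it was 1.07 (unadjusted p = 0.0446 in limma), without vehicle mouse 5 it was 1.09 (unadjusted p = 0.0357 in limma), and with array weights, which give less weight to libraries that deviate more, it was 1.19 (unadjusted p = 0.0229 in limma). The adjusted p in these 3 fits was 0.865, 0.620 and 0.391 in limma. In the same order the threshold was passed by 1.35%, 2.86% and 3.27% of all tested genes, against 1.53% in the main fit. An unadjusted p under 0.05 was found for 3.32%, 6.51% and 12% of them, against 4.62%. Leaving out vehicle mouse 2 gave the lowest *Mapk14* value, 0.52. Macrophage marker FPKM was low in vehicle mice 2 and 4, at 17.9 and 16.3, and high in vehicle mouse 5, at 277. In rFGF4 mouse 5 it was 22.0, beside 21.2 FPKM of *Mapk14*. The part of these markers in the *Mapk14* values was not tested.

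*Mapk8* and *Mapk9* encode JNK1 and JNK2, the JNK kinases found in most tissues. *Mapk8* lies on chromosome 14 from 33377898 to 33447158 and was the least abundant of the 8 genes. Its level was 1.87, 1.08, 1.22 and 1.32 FPKM in rFGF4 mice 1, 2, 3 and 5, and 0.932, 0.719, 1.32 and 1.55 FPKM in vehicle mice 2, 3, 4 and 5. The highest values were again in rFGF4 mouse 1 and vehicle mouse 5, and the lowest was in vehicle mouse 3. Its log2 fold change was 0.16 (standard error 0.17; 95% interval -0.22 to 0.54) on the log2(FPKM + 1) scale, which understates changes at levels this close to the pseudocount, and it was 0.28 with a pseudocount of 0.1. It was 0.066 without rFGF4 mouse 1, 0.063 without vehicle mouse 3 and 0.25 without vehicle mouse 5.

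*Mapk9* lies on chromosome 11 from 49846751 to 49886421. Its level was 1.98, 2.28, 2.20 and 1.98 FPKM in rFGF4 mice 1, 2, 3 and 5, and 2.15, 1.60, 2.10 and 2.26 FPKM in vehicle mice 2, 3, 4 and 5. All mice but vehicle mouse 3 lay between 1.98 and 2.28 FPKM. Its log2 fold change was 0.043 (standard error 0.12; 95% interval -0.23 to 0.32), and it turned to -0.041 with a common median ratio, to -0.030 with quantile normalization and to -0.028 without vehicle mouse 3.

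**Figure D2:**
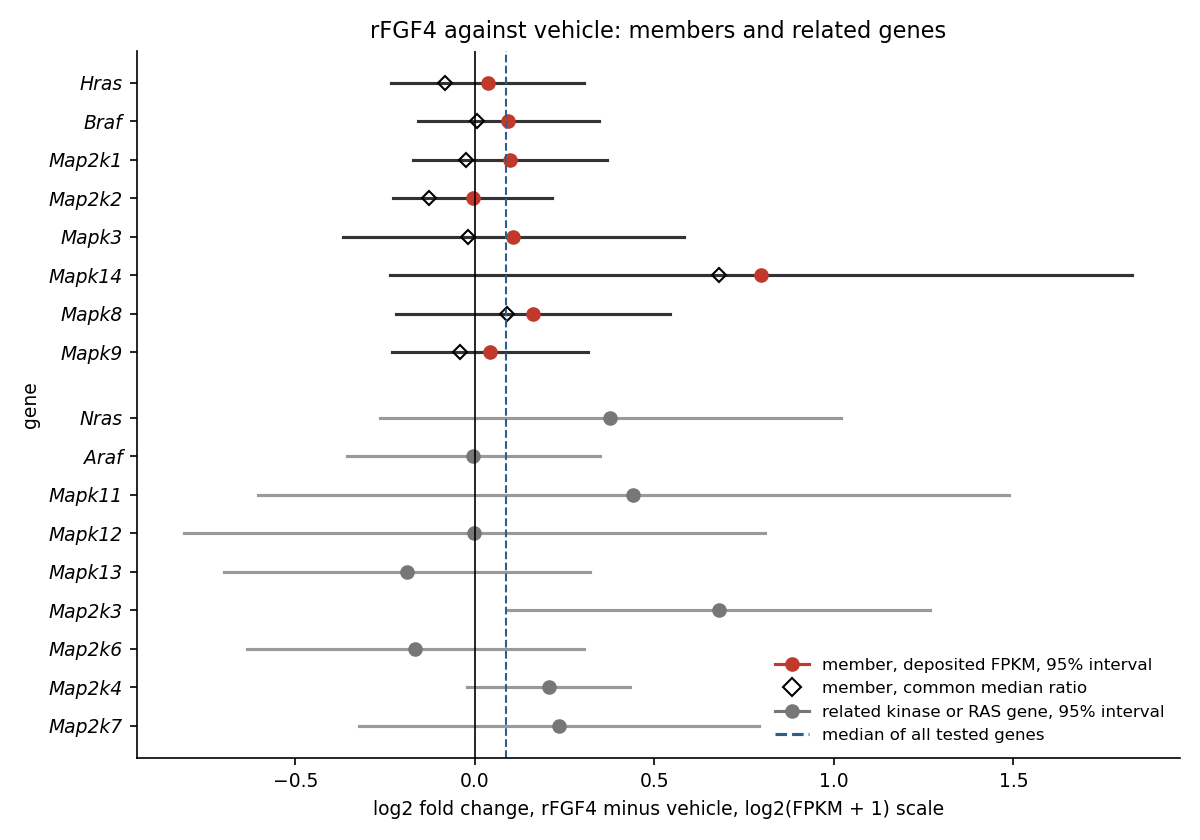
Log2 fold change of rFGF4-treated against vehicle-treated mice on the log2(FPKM + 1) scale, with limma 95% intervals, for the 8 genes (red) and for related RAS and kinase genes (grey), n = 4 mice per group. Open diamonds give the 8 genes with the common median ratio, the dashed line is the median of all tested genes (0.086), and all 8 intervals include 0.

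Since FPKM is per length of transcript, levels of different genes could be compared within a library. In the order of mean level over the 8 mice, *Mapk3* (37.9 FPKM) was followed by *Map2k2* (17.1), *Map2k1* (14.8), *Mapk14* (14.4), *Hras* (9.93), *Mapk9* (2.07), *Braf* (2.02) and *Mapk8* (1.25). The order was taken from these same values, so the 7 neighbouring pairs are described by the mean log2 difference of FPKM within a mouse and its SD over the 8 mice, with no test. *Mapk3* exceeded *Map2k2* by 1.12 ± 0.29, or 2.18-fold, and did so in 8 of 8 mice. *Map2k2* exceeded *Map2k1* by 0.21 ± 0.13, or 1.15-fold, also in 8 of 8 mice. *Hras* exceeded *Mapk9* by 2.26 ± 0.25, or 4.80-fold, and *Braf* exceeded *Mapk8* by 0.73 ± 0.39, or 1.66-fold, each in 8 of 8 mice.

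In the other 3 neighbouring pairs the difference was smaller than its SD. *Map2k1* was above *Mapk14* in 3 of 8 mice (0.24 ± 0.83), *Mapk14* above *Hras* in 5 of 8 (0.33 ± 0.84) and *Mapk9* above *Braf* in 5 of 8 (0.038 ± 0.19). *Mapk14* ranged from below *Hras* in rFGF4 mouse 3 and vehicle mice 2 and 4 to above *Map2k1* in rFGF4 mice 1, 2 and 5 and vehicle mice 3 and 5.

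Ratios of FPKM within a library do not depend on how the library was scaled. The tests beside them used differences of log2(FPKM + 1), which do depend on it, most at low levels. *Map2k1* stood at 0.902 ± 0.0633 (SD, n = 4) of *Map2k2* in rFGF4-treated mice and at 0.837 ± 0.0856 in vehicle-treated mice (n = 4). The JNK1 to JNK2 ratio *Mapk8*/*Mapk9* was 0.659 ± 0.206 and 0.549 ± 0.127 (SD, n = 4 each). *Braf* was below the RAF kinase gene *Araf* in every mouse, at 0.175 to 0.275 of its level. The *Mapk3*/*Mapk14* ratio varied most, from 1.54 to 3.39 with rFGF4 and from 2.25 to 6.80 with vehicle. For none of these 4 ratios did the group difference exceed the spread between mice (smallest two-sided exact permutation p = 0.171, for *Mapk3*/*Mapk14*; adjusted p = 0.6 for each of the 4, with 7 pairs compared in all). For *Mapk8*/*Mapk9* the difference was 0.12 with a pseudocount of 1 and 0.22 with 0.1 (exact permutation p = 0.514 and 0.429), and with a pseudocount of 1 it was 0.0025 without rFGF4 mouse 1, 0.056 without vehicle mouse 2 and 0.20 without rFGF4 mouse 2.

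**Figure D3:**
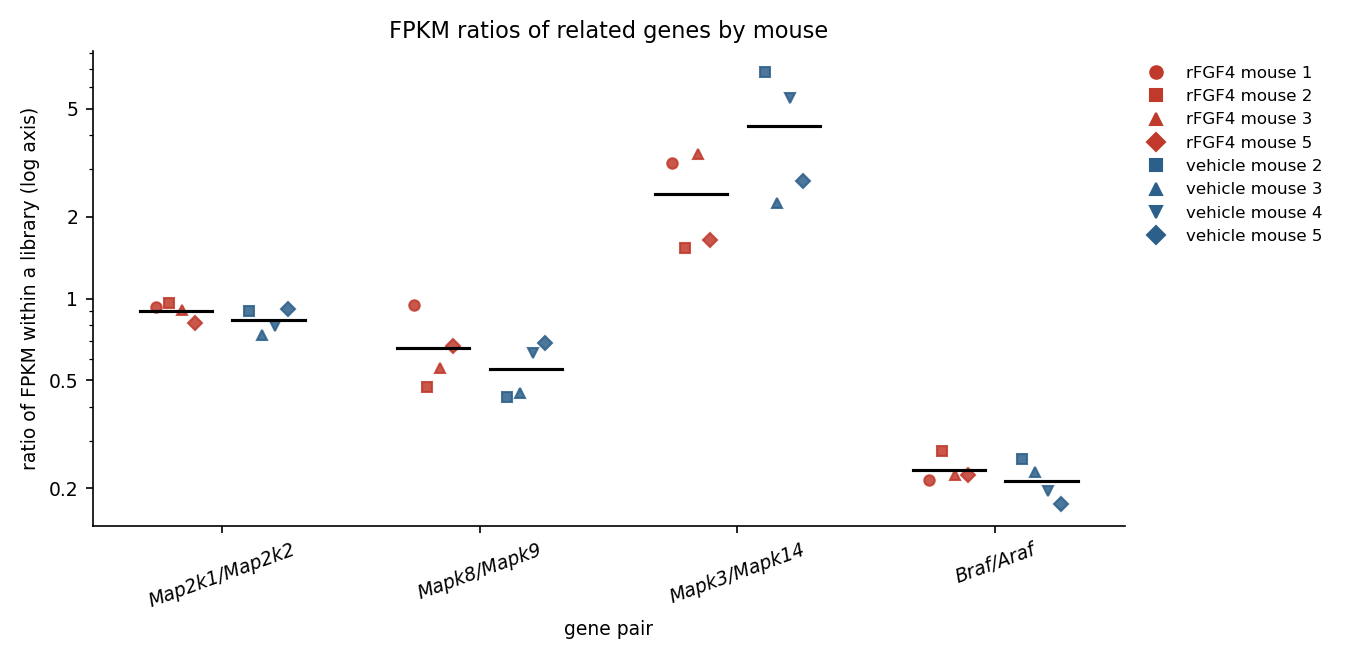
Ratio of FPKM within each library for 4 pairs of genes, on a log axis, with one symbol per mouse (red rFGF4, blue vehicle) and black bars for group means. The groups overlap in all 4 pairs, and *Mapk3*/*Mapk14* spreads widest, from 1.54 to 6.80.

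The 8 genes were set beside 110 others of the same cascades, listed by role. Of the 105 of these that were tested, 14 had an unadjusted p under 0.05 and all 14 were higher in rFGF4-treated mice, which is 13.3% against 3.56% of all tested genes that were higher at this p. The study's threshold was passed by 10 of the 105, all higher, against 1.09% of all tested genes. Their median log2 fold change was 0.21 beside 0.086 for all tested genes. It was 0.10 beside -0.011 with the common median ratio, 0.12 beside -0.00062 with quantile normalization, 0.088 beside 0.010 without rFGF4 mouse 1 and 0.32 beside 0.15 without vehicle mouse 5. None had an adjusted p under 0.05 (smallest 0.918, limma). Both counts moved with single mice. The 14 became 26 without rFGF4 mouse 5, 6 without rFGF4 mouse 1, 4 without rFGF4 mouse 2, 7 without rFGF4 mouse 3, 6 without vehicle mouse 2 and 5 without vehicle mouse 4, and in the same order the 10 became 18, 5, 3, 5, 5 and 4. The share of all tested genes at this p, in either direction, moved as well. The 4 genes without rFGF4 mouse 2 were 3.81% of the 105 against 2.84% of all tested genes, the 5 without vehicle mouse 4 were 4.76% against 3.31%, and the 26 without rFGF4 mouse 5 were 24.8% against 9.44%. Without rFGF4 mouse 1 the shares were 5.71% and 4.23%, without rFGF4 mouse 3 6.67% and 3.32%, and without vehicle mouse 2 5.71% and 3.29%. Without vehicle mouse 5 the 14 became 18 (17.1% against 6.51%) and the 10 became 15. Without vehicle mouse 3 they became 10 (9.52% against 3.21%) and 8.

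Among the other genes of the MEK and ERK arm, *Lamtor3*, which encodes the scaffold MP1 that holds MEK1 and ERK1 on late endosomes, had 6.01, 8.94, 7.27 and 6.94 FPKM in rFGF4 mice 1, 2, 3 and 5, and 4.15, 3.71, 4.64 and 5.61 FPKM in vehicle mice 2, 3, 4 and 5. Its groups did not overlap, and its log2 fold change of 0.59 (standard error 0.16, unadjusted p = 0.00534 in limma) kept a p under 0.05 in 8 of the 8 fits that left out 1 mouse.

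*Map2k3*, which encodes a kinase that activates p38, had 16.05, 16.2, 15.3 and 13.7 FPKM in rFGF4 mice 1, 2, 3 and 5, and 6.16, 10.98, 6.65 and 15.2 FPKM in vehicle mice 2, 3, 4 and 5. Its log2 fold change was 0.68 (standard error 0.26, unadjusted p = 0.0282 in limma), with a p under 0.05 in 3 of the 8 fits. As for *Mapk14*, vehicle mice 2 and 4 had the lowest values of the 8 mice and vehicle mouse 5 the highest of its group, a likeness that was seen only after the values were known. *Map2k6*, the other main p38 activator, had means of 2.72 and 3.16 FPKM and a log2 fold change of -0.17 (standard error 0.20).

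Other relatives did not pass an unadjusted p of 0.05. *Nras*, another RAS gene, had a log2 fold change of 0.38 and *Araf* -0.0039. The other p38 genes *Mapk11*, *Mapk12* and *Mapk13* had 0.44, -0.00095 and -0.19, and the JNK activators *Map2k4* and *Map2k7* 0.21 and 0.23. *Mapk10*, which encodes the mainly neuronal JNK3, lay between 0.0254 and 0.165 FPKM and was not tested. For *Nras*, as for *Mapk3*, the highest value of the vehicle group was in mouse 5 and that of the rFGF4 group in mouse 1, with 8.48 and 13.3 FPKM of *Nras*.

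By role, and with the 8 genes counted in their own roles, an unadjusted p under 0.05 was found for 0 of 6 RAS GTPase genes, 0 of 11 RAS adaptors and exchange factors, 0 of 6 RAS GTPase activating proteins and 0 of 8 RAF kinases and KSR scaffolds. It was found for 2 of 10 MEK and ERK kinases with scaffolds, 1 of 6 p38 kinases and their activators and 0 of 6 tested genes of the JNK arm. Of 18 MAP3K genes, *Map3k2*, *Map3k3* and *Map3k6* had it, with log2 fold changes of 0.48, 0.48 and 0.90. It was found for 0 of 9 tested kinases downstream of ERK and p38 and for 0 of 14 transcription factors.

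The group of MAP kinase phosphatases and ERK feedback genes holds phosphatases of ERK, p38 and JNK, the Sprouty and Spred inhibitors of RAS and ERK signaling, and the transcription factors *Etv4* and *Etv5*. Of its 19 genes, 8 were among the 14, which is 42.1% against 3.56% of all tested genes that were higher at this p. All 19 had log2 fold changes above 0 on the deposited scale, with a median of 0.44, against 67.1% of all tested genes above 0. With the common median ratio 18 of 19 were above 0 (median 0.33) against 47.5% of all tested genes, and with quantile normalization 18 of 19 (median 0.34) against 49.9%. *Dusp6*, a phosphatase that acts mainly on ERK, had 26.6, 32.1, 27.0 and 9.04 FPKM in rFGF4 mice 1, 2, 3 and 5, and 8.61, 10.1, 6.70 and 9.58 FPKM in vehicle mice 2, 3, 4 and 5. Its log2 fold change was 1.22 (standard error 0.36, unadjusted p = 0.00894 in limma). *Etv5*, a transcription factor induced by FGF, had a log2 fold change of 0.85, *Dusp4* 1.22, *Dusp1* 1.08, *Spry4* 0.81, *Spred2* 0.57, *Dusp5* 1.25 and *Spry2* 0.60. Of the 8 fits that left out 1 mouse, the unadjusted p stayed under 0.05 in 8 for *Dusp6*, *Etv5* and *Dusp4*, in 5 for *Dusp1*, in 4 for *Spred2* and in 2 for *Spry4*, *Dusp5* and *Spry2*. rFGF4 mouse 5 had the lowest value of its group in 16 of the 19 feedback genes and in 41.7% of all tested genes, and it lay within or below the vehicle range in 84.2% of the 19, against 88.8% of all tested genes. Among the 8 kinase and RAS genes it was the lowest of its group in 2. In rFGF4 mice 1, 2, 3 and 5 the 5 red blood cell markers summed to 120, 1556, 437 and 2657 FPKM. Mitochondrially encoded genes held 19.0%, 24.7%, 29.8% and 36.0% of FPKM there. Vehicle mice 2, 3 and 4 had sums of 2700 to 4325 FPKM and shares of 34.2% to 38.4%, and vehicle mouse 5 had 1139 FPKM and 24.4%. The part of these differences in the feedback genes was not tested.

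**Figure D4:**
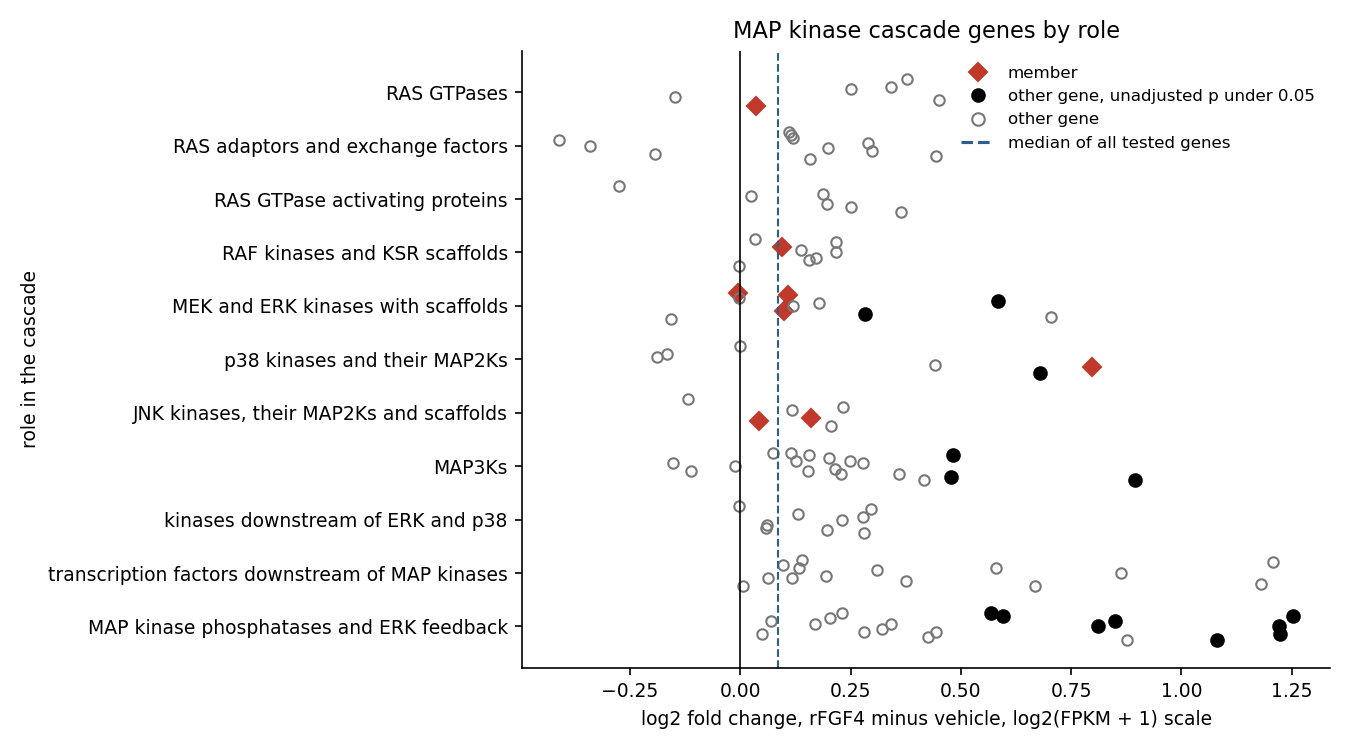
Log2 fold change of rFGF4-treated against vehicle-treated mice on the log2(FPKM + 1) scale for the tested genes of the MAP kinase cascades, by role, n = 4 mice per group. Red diamonds are the 8 genes described, filled black circles are other genes with an unadjusted p under 0.05, open circles the rest and the dashed line the median of all tested genes (0.086). The filled circles lie mostly among the phosphatases and feedback genes (8 of 14).

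As a description of likeness with no test, the tested gene whose log2(FPKM + 1) values over the 8 mice had the highest Pearson r was named for 7 of the 8 genes. For *Mapk3* it was *Crtc2* (r = 0.994), a coactivator of CREB, and 1575 of 15149 other tested genes had an r above 0.9 with *Mapk3*. For *Mapk14*, 10 genes had such an r, with the pseudogene *Llph-ps2* the nearest (r = 0.947). For *Map2k1* it was the fatty acid elongase gene *Elovl5* (r = 0.978), for *Map2k2* *Tmco4* (r = 0.984), for *Mapk9* *Tstd1* (r = 0.948), for *Braf* *Rbm12b1* (r = 0.946) and for *Hras* the pseudogene *Gm3375* (r = 0.964). Each is the highest of 15149 values over 8 points from the same libraries.

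**Figure D5:**
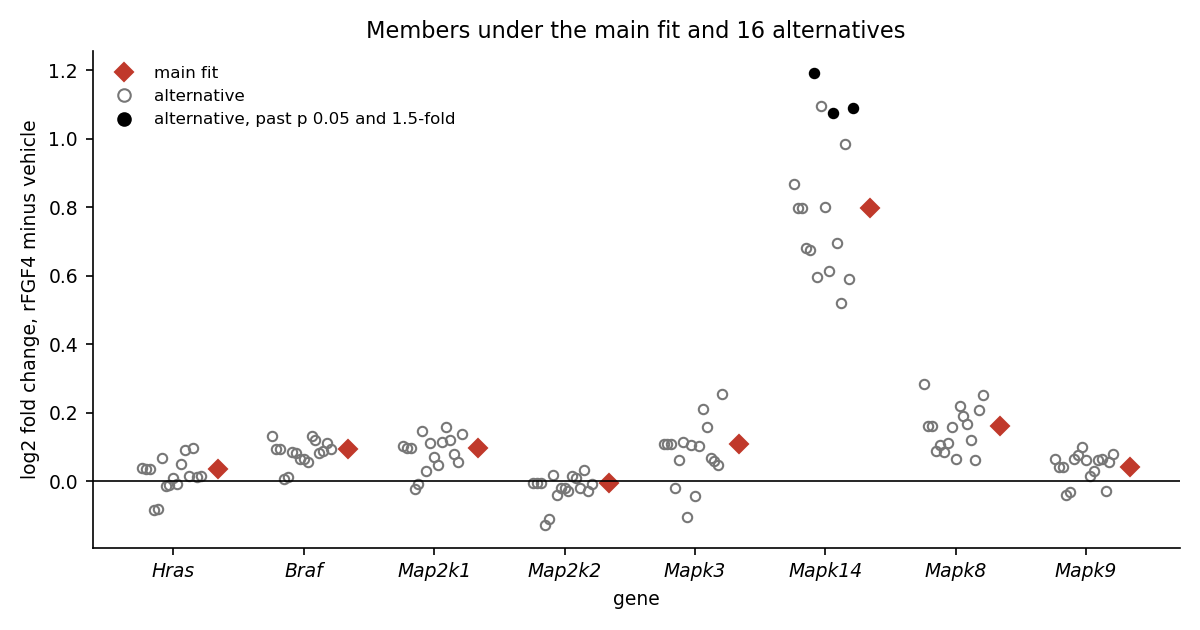
Log2 fold change of the 8 genes in the main fit (red diamonds) and under 16 alternatives of filter, pseudocount, scaling, weights, block and libraries left out (circles), n = 4 mice per group in the main fit. Filled circles passed an unadjusted p of 0.05 and a 1.5-fold change, which occurred in 3 fits of *Mapk14*; all 16 of its values lie between 0.52 and 1.19.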

How the data were processed

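Poly(A) RNA of 8 kidneys (4 rFGF4, 4 vehicle) was sequenced in pairs of reads. Per the submitters' processing notes, HISAT2 2.0, Bowtie 0.12.2 and StringTie 1.3.0 were used, and mm8 is named as the build, whereas 99.5% of the table's gene identifiers are in GENCODE M21 (GRCm38), whose coordinates are given here. The authors assembled transcripts with StringTie, merged them with gffcompare and deposited FPKM per gene, with 0.0001 in place of 0. The authors also deposited the ratio (fold change), its log2, a p-value and a q-value of their own comparison, which were not used. The study's methods name a test for counts, so, with FPKM alone, limma 3.58.1 (R 4.3.3) was fitted with a variance trend to log2(FPKM + 1) of genes with at least 0.5 FPKM in 4 or more libraries, with Benjamini-Hochberg adjustment over all tested genes and the study's threshold. The procedure was tested on simulated data. Single genes and ratios were compared by exact permutation (two-sided), which cannot give a p below 0.0286 with 4 against 4 mice. Coding sequences were aligned with Biopython 1.88. Python 3.11.15 and matplotlib 3.10.9 drew the figures. Some genes of the lists are not reported here. The text otherwise names the 8 genes, their relatives, listed cascade genes at an unadjusted p under 0.05, and the gene most like each in level. The genes and lists were chosen with earlier results of these data known. Mouse numbers 2, 3 and 5 occur in both groups, and the sources do not describe them as pairs.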

Additional observations from a re-analysis of the deposited data

Results flagged for a closer look

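In 74 groups of 4 values, 8 held a mouse set apart from the nearest other by a share of the whole range above Dixon's 95% critical value, where chance gives about 3.7. Shares were taken on the log2(FPKM + 1) scale for genes, the log2 scale for ratios and the plain scale for library measures. Levels are printed below as FPKM, on which the shares of genes and ratios would differ. Among the 8 genes, *Hras* was flagged for vehicle mouse 3 (11.3 FPKM against 9.29 to 9.33, a share of 0.982) and *Mapk3* for vehicle mouse 5 (49.0 FPKM against 31.5 to 32.9, a share of 0.902). The *Braf*/*Araf* ratio was high in rFGF4 mouse 2 (0.275 against 0.215 to 0.224, a share of 0.832). The summed FPKM of vehicle mouse 5 was low (481321 against 541179 to 552604, a share of 0.840).

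The other 4 were feedback genes, each low in rFGF4 mouse 5. *Etv5* had 3.88 FPKM there against 7.39 to 7.90 in the other rFGF4-treated mice (a share of 0.902), *Dusp4* 1.85 against 6.06 to 7.12 (0.866), *Dusp6* 9.04 against 26.6 to 32.1 (0.848) and *Spry4* 1.03 against 3.72 to 4.21 (0.894). The genes of one group share their mice, so these 4 are not independent.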

How the results depend on the processing

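Over 16 alternatives, *Braf*, *Mapk14* and *Mapk8* kept their direction in all, and 0 of the 8 genes passed the study's threshold in 13 of them. *Mapk14* passed it alone, at log2 fold changes of 1.19 with array weights, 1.07 without rFGF4 mouse 3 and 1.09 without vehicle mouse 5. In those 3 fits 3.27%, 1.35% and 2.86% of all tested genes passed it. With 1 mouse left out *Mapk14* ran from 0.52 to 1.09. The number of the 8 genes past the threshold, and at an unadjusted p under 0.05, thus ran from 0 to 1. With a common median ratio *Hras* was -0.083, *Map2k1* -0.023, *Mapk3* -0.019 and *Mapk9* -0.041, and with quantile normalization *Hras* -0.080, *Map2k1* -0.0078 and *Mapk9* -0.030. *Map2k2* was 0.019 with array weights. With 1 mouse left out, *Hras* ran from -0.0072 to 0.098, *Map2k2* from -0.029 to 0.032, *Mapk3* from -0.043 to 0.26, *Mapk9* from -0.028 to 0.080, *Braf* from 0.057 to 0.13, *Map2k1* from 0.046 to 0.16 and *Mapk8* from 0.063 to 0.25. Without both rFGF4 mouse 1 and vehicle mouse 5, an alternative chosen after seeing the data, *Hras* was -0.012. The replicate block, fitted to mouse numbers 2, 3 and 5, gave -0.013 for *Hras* and -0.10 for *Mapk3*. It called 3 of the 105 tested cascade genes at the threshold, against 1.74% of all tested genes. At an unadjusted p under 0.05 it called 4 of the 105, against 2.61% of all tested genes. The median was 0.046 for the cascade genes and -0.019 for all tested genes. Deviations of same-numbered mice correlated at -0.39 to -0.16. These correlations over genes also carry shifts of whole libraries, so they cannot show whether the numbers pair the mice. Array weights gave 496 genes past the threshold (3.27% of all tested). They gave 28 of the 105 cascade genes at an unadjusted p under 0.05, against 12% of all tested genes. With 1 mouse left out, the genes past the threshold numbered 188 to 580 (580 without rFGF4 mouse 5, 434 without vehicle mouse 5). The cascade genes past it numbered 3 to 18 and those at an unadjusted p under 0.05 4 to 26, each highest without rFGF4 mouse 5. The shares of all tested genes ran from 1.24% to 3.83% and from 2.84% to 9.44%. The cause of these shifts was not tested, and the unknown depth leaves the counting error of the low genes *Braf*, *Mapk8* and *Mapk9* unknown.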
